A study of Mus musculus with 6 samples.

Results

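The endoplasmic reticulum (ER) folds the proteins that a cell secretes or places in its membranes. The genes described here encode its chaperones, the machinery that moves proteins into it and out of it, and the sensors of the unfolded protein response. They are a list of 35 named genes, looked up by symbol in a table of expression in follicular B cells. All 35 were in the table, and 32 of them had a mean of at least 1 FPKM over the genotypes and were kept, among 9866 genes that passed the same minimum. FPKM counts sequenced fragments relative to transcript length and to the depth of the library. Levels are set side by side on this scale, between genes as well as between genotypes. The unit itself corrects for no other difference between genes or libraries.

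The cells were B220+AA4.1-CD23+CD21lo, sorted from C57BL/6 mice of 2 genotypes with 3 samples each, and the labels give neither age nor sex. Both genotypes carried CD23Cre, a Cre recombinase driven by the CD23 promoter, which acts from splenic transitional B cells onwards. It removes exon 3 of Myh9, the gene of the myosin IIa heavy chain, from 1 allele in CD23Cre+Myh9wt/fl cells and from both in CD23Cre+Myh9fl/fl cells, so the comparison group was haploinsufficient and not wild-type. The table holds 1 FPKM per genotype, pooled by the authors over the 3 samples, and no value of a single sample. The statistics of the authors' own comparison, which the table also holds, were not used. No test between the genotypes could be computed from the pooled values, and every difference given here is a description of 2 pooled values.

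Differences are given as the log2 ratio of fl/fl over wt/fl after adding 1 to each FPKM, which understates the difference of genes at a low level. A gene was counted as lower or higher when this ratio was at least 0.32 in size, a rise of 25% or its inverse, a size called the fold from here on. Myh9 was at 50.6 FPKM in wt/fl against 21.1 in fl/fl, or 41.7% of the haploinsufficient level, a log2 ratio of −1.22. Over all entries the FPKM added up to 595296 for wt/fl and 596105 for fl/fl. All 9866 genes together had a median log2 ratio of 0.00. The defining genes of B cells were at high levels in both genotypes, with Cd79b at 1638 and 1739 FPKM and Cd79a at 1098 and 1115 FPKM. Of the 10 B cell markers listed, 0 were lower and 1 was higher past the fold, against 5.48% and 4.6% of all genes. Their median log2 ratio was 0.07. The higher gene was Fcer2a, which encodes CD23 itself, one of the sorting markers, at 439 FPKM in wt/fl against 588 in fl/fl (named after its values were seen).

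As background, a newly made protein enters the ER through the Sec61 channel, is bound by chaperones such as BiP, receives sugars and disulfide bonds, and is either released to the Golgi or returned to the cytosol for destruction, a route called ER-associated degradation (ERAD). When unfolded protein accumulates, the membrane sensors ATF6, IRE1 and PERK start the unfolded protein response. ATF6 and the XBP1 protein made after IRE1 splices Xbp1 mRNA raise the transcription of chaperone and ERAD genes, whereas PERK slows translation and favors ATF4, which in turn induces CHOP. In the B cell lineage this machinery is known above all for its expansion when a B cell becomes an antibody-secreting plasma cell. Follicular B cells are resting and secrete little.

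Many of these genes are known to be controlled through the ER stress element (ERSE), in which a CCAAT half-site and a CCACG half-site are separated by 9 bases, and which is bound by ATF6 together with the factor NF-Y. The related ERSE-II has ATTGG and CCACG separated by 1 base and was described at Herpud1. Both were searched on both strands in the 250 bases before and 50 bases after the transcription start in the RefSeq promoter table (GRCm38.p6), in which 29 of the 35 genes had an entry. An ERSE was found upstream of 7 of the 29 genes, against 37 of 27025 genes in the whole table (0.137%), and an ERSE-II upstream of 1, against 12 of 27025 (0.0444%). The stretches that hold them are shown because they are the part of these promoters that the genes have in common. They are written 5′ to 3′ on the strand of the gene, with the half-sites in capitals and 15 bases on either side:
Hspa5, chr2:34772010-34772058, plus strand: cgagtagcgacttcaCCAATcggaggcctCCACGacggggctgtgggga
Hsp90b1, chr10:86705518-86705671, minus strand: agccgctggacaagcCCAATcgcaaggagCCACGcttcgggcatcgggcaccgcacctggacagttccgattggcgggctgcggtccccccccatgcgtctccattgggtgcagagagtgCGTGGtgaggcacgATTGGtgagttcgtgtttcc
Creld2, chr15:88819505-88819553, plus strand: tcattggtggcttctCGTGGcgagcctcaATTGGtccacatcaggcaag
Calr, chr8:84847060-84847108, minus strand: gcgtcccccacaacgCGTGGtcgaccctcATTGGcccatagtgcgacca
Canx, chr11:50325785-50325833, minus strand: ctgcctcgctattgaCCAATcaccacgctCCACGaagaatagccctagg
Pdia6, chr12:17266476-17266524, plus strand: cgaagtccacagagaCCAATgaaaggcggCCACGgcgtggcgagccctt
Syvn1, chr19:6046517-6046565, plus strand: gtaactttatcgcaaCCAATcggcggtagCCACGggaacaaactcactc
Herpud1 (ERSE-II), chr8:94386362-94386402, plus strand: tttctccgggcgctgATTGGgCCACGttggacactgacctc

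The element reads in the direction of the gene in Hspa5, Canx, Pdia6 and Syvn1 and in the opposite direction in Calr and Creld2, where the half-sites appear as CGTGG and ATTGG. Hsp90b1 has 2 copies, one in each direction. The first base of the element lay between 44 bases (Syvn1) and 212 bases (Hsp90b1) before the start site, as the map of element positions shows. The CCACG half-site is common to the ERSE and the ERSE-II, so the searches are not independent of each other. Exact matches to 2 other elements of the response were searched in the same windows. The core of the element bound by XBP1 (TGACG directly followed by TGG) was in 0 of the 29 promoters and in 0.714% of all, and the ATF4 element (TGATG and AAT separated by 1 base) was in 0 of 29 and in 1.08% of all. A match is a match of letters and not a site shown to be bound in these cells, and a window without one says nothing about the factor.

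**Figure D1:**
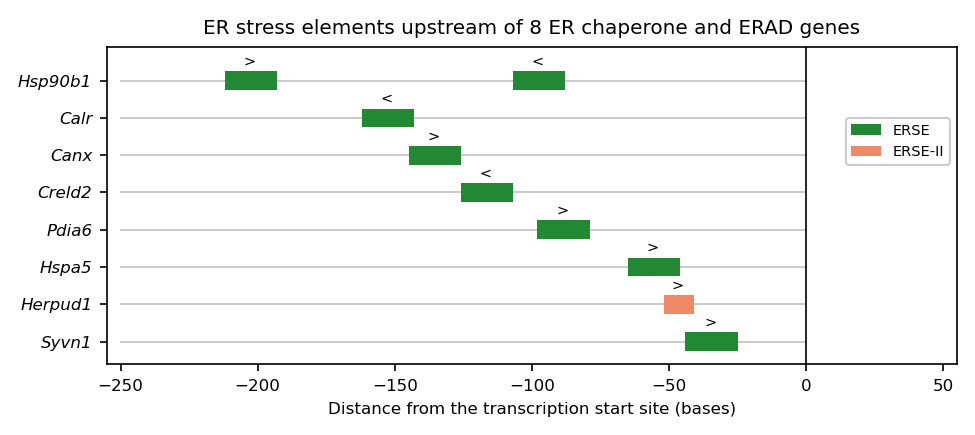
Position of the ERSE (green) and ERSE-II (orange) upstream of 8 genes, in bases from the transcription start site at 0, in the RefSeq promoter table. Arrowheads give the direction of the element relative to the gene, and Hsp90b1 has 2 copies in opposite directions.

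The genes were well expressed in both genotypes. Their median level was 27.2 FPKM (mean of the genotypes), against 14.0 FPKM for all 9866 genes, and 30 of the 35 were above 10 FPKM in both. In wt/fl, 7 genes were above 100 FPKM, and Hsp90b1, Hspa5 and Sec61b together made up 42.1% of the summed level of the 32 kept genes. The kept genes held 0.365% of all FPKM of the table in wt/fl and 0.343% of it in fl/fl, and the 35 listed genes summed to 2171 and 2045 FPKM.

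Among the chaperones of the lumen, Hsp90b1 and Hspa5 held the highest levels of the set. Hsp90b1, which encodes GRP94, the ER member of the HSP90 family, was at 423 FPKM in wt/fl against 363 in fl/fl, a log2 ratio of −0.22. Hspa5, which encodes BiP, the ER member of the HSP70 family and the chaperone that also restrains the stress sensors, was at 285 and 264 FPKM, a log2 ratio of −0.11. By level they stood at percentiles 98.4 and 97.9 of all genes. Hyou1 (GRP170), the HSP110-like partner that exchanges the nucleotide of BiP, was at 20.8 and 17.8 FPKM, a log2 ratio of −0.22. The smaller stress-induced proteins of the lumen were at similar levels to Hyou1, and none of them was as far from 0 in its ratio. Sdf2l1, a cofactor of BiP and its J-domain partners, was at 22.7 and 24.2 FPKM. Manf, a factor that is retained in the ER by BiP and can be secreted, was at 19.6 and 20.1 FPKM. Creld2, a disulfide isomerase-like protein, was at 25.51 and 25.02 FPKM. The 6 lumenal genes had a median log2 ratio of −0.07, with 4 below and 2 above 0.

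The lectin chaperones hold glycoproteins in the folding cycle, and their 2 genes lay on opposite sides of 0. Calr, which encodes the lumenal calreticulin, was at 119.6 FPKM in wt/fl against 132 in fl/fl, a log2 ratio of 0.14. Canx, which encodes its membrane-bound relative calnexin, was at 103 and 91.6 FPKM, a log2 ratio of −0.17. Their sum was 222 FPKM in wt/fl against 224 in fl/fl.

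The protein disulfide isomerases form and rearrange disulfide bonds, which antibodies and B cell receptors contain. P4hb, the founding enzyme of the family, was at 44.6 FPKM in wt/fl against 41.4 in fl/fl. Pdia3, which works with the lectin chaperones on glycoproteins, was at 79.9 and 73.2 FPKM. Pdia4 was the highest of the 4, at 105 and 99.2 FPKM. These 3 genes had log2 ratios between −0.12 and −0.07. Pdia6, a partner of BiP, was on the other side of 0, at 63.0 FPKM in wt/fl against 73.7 in fl/fl, a log2 ratio of 0.22.

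The translocon genes held the lowest log2 ratio of the whole set and one of the highest. Sec61b, the small beta subunit of the Sec61 channel, was at 206 FPKM in wt/fl against 166 in fl/fl, or 80.8% of the wt/fl level, a log2 ratio of −0.31 that stopped short of the fold. Sec61a1, the subunit that forms the pore, was at 28.0 and 27.1 FPKM, a log2 ratio of −0.04, so the difference of the beta subunit was not matched in the pore subunit. The translocon-associated protein (TRAP) complex helps certain signal sequences to open the channel, and its 4 subunits are encoded by Ssr1 to Ssr4. Ssr1 was at 19.7 and 19.3 FPKM, Ssr2 at 31.6 and 31.4 FPKM, and Ssr3 at 66.5 and 67.2 FPKM. Ssr4 was at 48.0 FPKM in wt/fl against 58.5 in fl/fl, a log2 ratio of 0.28. Of the 6 translocon genes, 4 were thus within 0.1 of 0.

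All 8 ERAD genes had log2 ratios between −0.20 and 0.07, with a median of −0.06. Herpud1, a stress-induced scaffold of the degradation complex, was at 52.9 FPKM in wt/fl against 55.6 in fl/fl. Syvn1, which encodes the ubiquitin ligase HRD1 of that complex, was at 62.9 and 59.3 FPKM, and Sel1l, its membrane cofactor, was at 20.8 and 19.7 FPKM. The derlins form part of the exit channel. Derl1 was at 26.5 and 27.3 FPKM and Derl2 at 19.3 and 18.7 FPKM. The EDEM proteins trim mannose from glycoproteins that have failed to fold and so mark them for export. Edem1 was at 27.17 and 25.04 FPKM, Edem3 at 13.8 and 13.3 FPKM and Edem2 at 10.01 and 8.57 FPKM, the last with the lowest log2 ratio of the group, −0.20.

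The 3 sensors had different levels and different signs. Atf6, whose product is cut in the Golgi to release a transcription factor, was at 22.0 FPKM in wt/fl against 23.9 in fl/fl, a log2 ratio of 0.11. Eif2ak3, which encodes the kinase PERK, was at 24.1 and 20.7 FPKM, a log2 ratio of −0.21. Ern1, which encodes the kinase and endonuclease IRE1 alpha, was the gene with the lowest level of the 32, at percentile 4.5 of all genes. It was at 1.26 FPKM in wt/fl against 1.83 in fl/fl, a log2 ratio of 0.33, and it was the only gene of the set past the fold. With a mean of 1.55 FPKM it was also the gene just above the minimum, and the next gene, Edem2, had a mean of 9.29 FPKM.

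Downstream of PERK, Atf4 was one of the most abundant genes of the set, at 144 FPKM in both genotypes (log2 ratio 0.01). ATF4 is controlled mainly at translation, which these data do not measure. Ddit3, which encodes CHOP, was at 22.0 FPKM in wt/fl against 19.5 in fl/fl. Ppp1r15a, which encodes GADD34, the phosphatase subunit that ends the block on translation, was at 12.7 and 11.4 FPKM. The log2 ratios of both lay between −0.16 and −0.14. The other 3 genes of this branch did not reach the minimum. Trib3, a pseudokinase that binds ATF4 and other factors, was at 0.319 and 0.155 FPKM. Chac1, which degrades glutathione, was at 0.1697 and 0.0201 FPKM, and Asns, asparagine synthetase, was at 0.185 and 0.292 FPKM. The highest mean of these 3 genes was 0.238 FPKM. All 3 were well under the minimum in both genotypes, and no ratio is read from them.

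**Figure D2:**
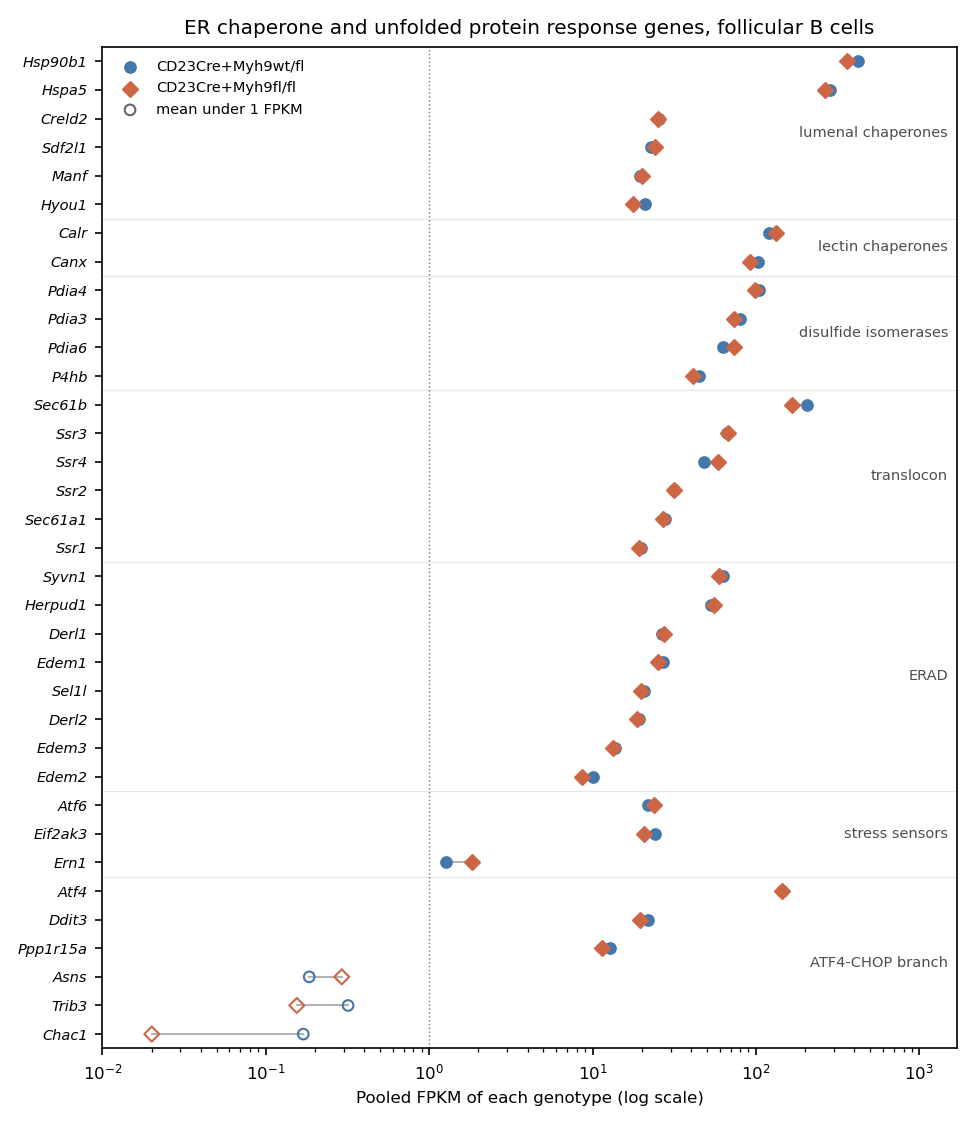
Pooled FPKM of each of the 35 genes (log scale) in CD23Cre+Myh9wt/fl (circles) and CD23Cre+Myh9fl/fl (diamonds) follicular B cells, grouped by role. The dotted line marks the minimum of 1 FPKM, which Asns, Trib3 and Chac1 (open symbols) did not reach, and the symbols of most other genes lie on or next to each other.

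Across the set, 0 of the 32 genes were lower past the fold, whereas 5.48% of all 9866 genes were, and 1 of the 32 was higher, whereas 4.6% of all genes were. At a wider fold of 1.5, 0 genes were lower and 0 were higher, with 1.53% and 0.791% of all genes past that fold. At a mean of 5 FPKM or more, 0 of 31 were lower and 0 were higher, against 3.64% and 3.36% of the 7729 genes at that level. With such small shares among all genes, counts at or near 0 in a set of this size do not set it apart. The median size of the log2 ratio, without its sign, was 0.11 in the set and 0.11 among all genes. Of the 32 genes, 15 (46.9%) lay within 0.1 of 0, against 46.4% of all genes. The sign leaned to the low side. The ratio was below 0 for 21 of the 32 genes (65.6%), against 49.5% of all genes, and the median was −0.04. These genes are regulated together and are not independent of each other, so the lean is given as a count only.

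Most of the 35 genes have 1 entry in the table, and 2 have more, an entry being the transcripts with one coding sequence. For Sel1l, the sum of both entries hid differences of opposite sign. The larger entry was at 16.6 FPKM in wt/fl against 12.3 in fl/fl, a log2 ratio of −0.40, and the smaller was at 4.21 and 7.41 FPKM, a log2 ratio of 0.69. The division of fragments between entries is an estimate made by the software, and the sum of Sel1l had a log2 ratio of −0.07. Both entries of Ssr4 leaned the same way, at 34.9 and 40.3 FPKM and at 13.1 and 18.3 FPKM, with log2 ratios of 0.20 and 0.45.

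The response has further genes outside the set, and 104 of them were listed in 4 groups, of which 94 were kept. Their median log2 ratio was −0.01, and 6 (6.38%) were lower and 1 was higher past the fold, against 5.48% and 4.6% of all genes. The counts of the single lists are small and are read against the same shares. Among 21 regulators and targets of the response, the median was −0.08, with 3 lower and 0 higher. Xbp1, which carries the signal of IRE1 and was examined for that reason, was at 48.8 FPKM in wt/fl against 45.9 in fl/fl, a log2 ratio of −0.09. It has 2 entries, at 38.1 and 37.0 FPKM and at 10.7 and 8.91 FPKM, and the table does not name which of them is the spliced form. The J-domain partners of BiP were close to even. Dnajb11 was at 76.5 and 76.8 FPKM, Dnajc3 at 25.2 and 24.0 FPKM, Dnajc10 at 18.1 and 18.6 FPKM, and Dnajb9, a strongly XBP1-dependent gene, at 6.10 and 6.13 FPKM.

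The genes of this list with the largest log2 ratios at 5 FPKM or more were Ddit4, Creb3 and Sil1. Ddit4 encodes REDD1, an inhibitor of mTORC1 that ATF4 induces but that glucocorticoids and lack of oxygen induce as well, and it was at 22.6 FPKM in wt/fl against 8.95 in fl/fl, a log2 ratio of −1.25. Creb3, a membrane-bound transcription factor, was at 25.6 and 23.2 FPKM, and Sil1, an exchange factor of BiP, was at 5.61 and 6.14 FPKM, and both were inside the fold. The other 2 lower genes were Sesn2, at 1.96 and 1.34 FPKM, and Cebpb, at 1.46 and 0.909 FPKM, both named after their values were seen and both at low levels.

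Among 22 other folding enzymes of the ER the median was 0.00, with 2 lower and 1 higher. P4ha1, the catalytic subunit of collagen prolyl 4-hydroxylase and a partner of P4hb, was at 8.67 FPKM in wt/fl against 3.66 in fl/fl, a log2 ratio of −1.05. Fkbp11, a prolyl isomerase that is abundant in antibody-secreting cells, was at 7.17 and 4.48 FPKM, a log2 ratio of −0.58. Tmx3, a membrane-bound disulfide isomerase, was at 7.41 and 6.12 FPKM. The higher gene was Fkbp7, at 2.02 and 4.05 FPKM (named after its values were seen). Among 28 genes of the channel, the signal recognition particle, signal peptidase and oligosaccharyltransferase, 0 were past the fold and the median was 0.04. The largest ratios there belonged to Sec11a, a catalytic subunit of signal peptidase, at 78.0 and 67.0 FPKM, Ostc, a subunit of oligosaccharyltransferase, at 69.1 and 79.8 FPKM, and Sec61g, the gamma subunit of the channel, at 90.7 and 104 FPKM. The alpha, beta and gamma subunits of Sec61 thus had log2 ratios of −0.04, −0.31 and 0.19. Among 23 other ERAD genes the median was −0.01, with 1 lower gene, Erlin1, which acts in the degradation of IP3 receptors, at 13.3 FPKM in wt/fl against 10.3 in fl/fl. Man1b1, a mannosidase, was at 6.45 and 5.44 FPKM, and Ufd1l, a cofactor of the extracting ATPase p97, was at 13.7 and 15.9 FPKM.

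The ER chaperones have relatives in the cytosol, many of which answer to heat shock factor, and in mitochondria. The cytosolic relatives differed far more between the genotypes. Of 20 kept genes of the cytosolic heat shock list, 15 were lower past the fold and 0 were higher, against 5.48% and 4.6% of all genes. Their median log2 ratio was −0.61, and they include the transcription factors Hsf1 and Hsf2, both inside the fold. All 26 listed genes, those under the minimum included, summed to 3818 FPKM in wt/fl against 2226 in fl/fl. Among those under the minimum is Serpinh1, whose product is an ER protein and not a cytosolic one. This list was written with the lower heat shock genes of these data already known, so its count is no independent evidence of their direction. Of 8 mitochondrial chaperones and proteases, 2 were lower and 0 were higher, with a median of −0.01. The lower genes were the chaperonin subunits Hspe1, at 571 and 389.7 FPKM, and Hspd1, at 129 and 86.1 FPKM.

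**Figure D3:**
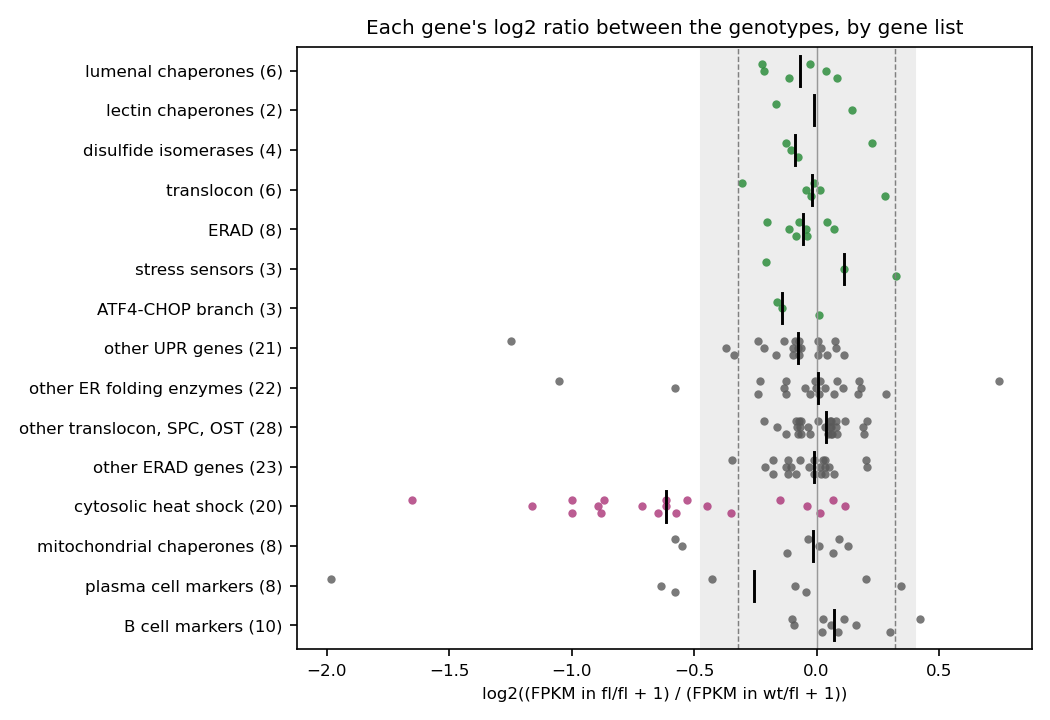
Log2 ratio (fl/fl over wt/fl, 1 added to each FPKM) of each kept gene, by list, with the number of kept genes in brackets. Vertical bars are medians, dashed lines mark the fold of 0.32, and the grey band holds the central 95% of all 9866 genes. The ER genes described here are green and, with the exception of Ern1, lie inside the dashed lines, whereas most cytosolic heat shock genes (purple) lie below them.

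The same genes can be set side by side by protein family. In the HSP70 family, the cytosolic Hspa8 was at 1574 FPKM in wt/fl against 788 in fl/fl, a log2 ratio of −0.997, against −0.11 for Hspa5 in the ER, and the mitochondrial Hspa9 was at 54.4 and 54.7 FPKM. The other cytosolic HSP70 genes on the list were at low levels and of both signs. Hspa1a was at 1.27 and 0.777 FPKM and Hspa1b at 3.76 and 2.04 FPKM, a pair of near-identical copies between which fragments may be split, and Hspa2 was at 2.35 and 2.64 FPKM, a log2 ratio of 0.12. The level of Hspa5 was 0.181 of that of Hspa8 in wt/fl cells and 0.335 of it in fl/fl cells. In the HSP90 family, Hsp90aa1, the inducible cytosolic form, was at 387 and 208 FPKM, and Hsp90ab1, the constitutive form, was at 936 and 647 FPKM. Their log2 ratios were −0.89 and −0.53, against −0.22 for Hsp90b1, and the mitochondrial Trap1 was at 30.7 and 32.2 FPKM. In wt/fl the levels of Hsp90b1 and Hsp90aa1 were close, with a quotient of 1.10, whereas in fl/fl Hsp90b1 was 1.75 times as high.

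In the HSP110 family the signs differed as well. Hsph1 was at 129 FPKM in wt/fl against 40.3 in fl/fl, and Hspa4l was at 13.2 and 5.35 FPKM, with log2 ratios of −1.65 and −1.16, both further from 0 than Hyou1 in the ER at −0.22. Hspa4, which is also cytosolic, was at 71.3 and 72.1 FPKM, so compartment alone did not sort the family. The heat shock element (GAA, TTC and GAA, each separated by 2 bases) was found in the promoters of 3 of 16 cytosolic heat shock genes, Hsph1, Dnajb6 and Chordc1, in 0 of 29 ER genes and in 0.662% of all. The ERSE and the ERSE-II were found in 0 of those 16. Of the 3 genes with a heat shock element, Hsph1 and Chordc1 were lower past the fold. Dnajb6 was at 84.3 FPKM in wt/fl against 82.0 in fl/fl, a log2 ratio of −0.04.

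**Figure D4:**
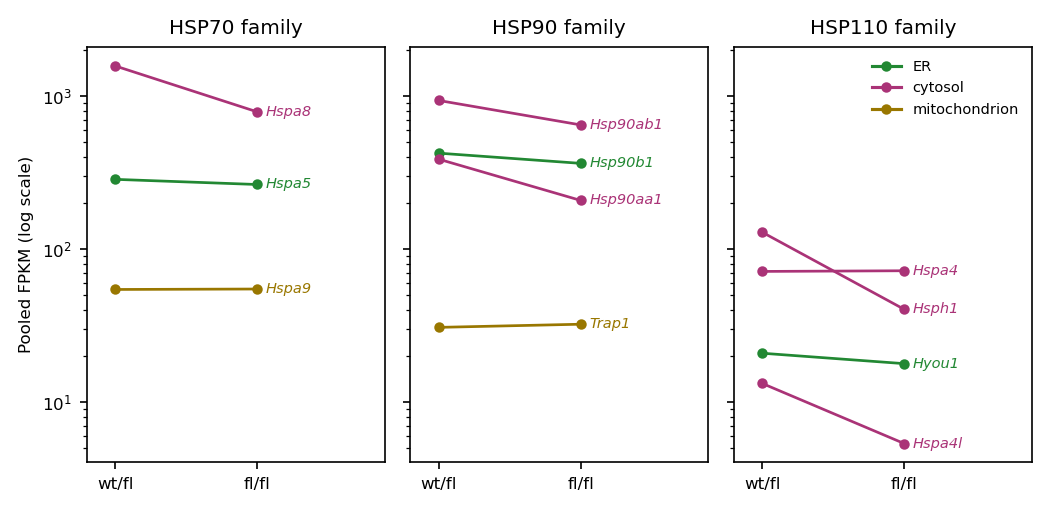
Pooled FPKM (log scale) of HSP70, HSP90 and HSP110 family genes in wt/fl and fl/fl cells, colored by the compartment of the protein. The lines of the ER genes Hspa5, Hsp90b1 and Hyou1 slope less than those of the cytosolic Hspa8, Hsp90aa1, Hsp90ab1, Hsph1 and Hspa4l, and Hspa4 is flat. The low-level Hspa1a, Hspa1b and Hspa2 are not drawn.

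Within the set, the genes with an ER stress element were at higher levels than those without one, while their ratios were similar. Of the kept genes with a promoter entry, the 8 that hold an ERSE or ERSE-II had a median level of 82.9 FPKM in wt/fl against 82.7 in fl/fl, and the 18 without one had 23.4 and 22.4 FPKM. The median log2 ratios were −0.05 with an element and −0.07 without. Among the genes with an element, Hsp90b1 was lowest at −0.22 and Pdia6 highest at 0.22, so sharing the element did not go with sharing a direction. Of all genes with a promoter entry, 49 hold either element. Of these, 32 had an expression value and only 19 reached the minimum, so the higher level is described for the set only. Of these 19, 11 are outside the set, among them Dnajc3 with an ERSE and Dnajb11 with an ERSE-II. They had log2 ratios between −0.16 and 0.20 with a median of 0.00, and 0 of the 19 genes were past the fold. Against 5.48% lower and 4.6% higher among all genes, a count of 0 in 19 genes does not set them apart.

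Plasma cells are rich in ER transcripts, and some of their markers differed between the genotypes. The sort for B220+CD23+ cells would remove most plasma cells, which have little B220 and no CD23, and likewise most neutrophils, macrophages and T cells. Of 10 plasma cell markers, 8 were kept, with a median log2 ratio of −0.26. Past the fold, 4 were lower and 1 was higher, against 5.48% and 4.6% of all genes. The higher gene was Slamf7, at 21.7 FPKM in wt/fl against 27.8 in fl/fl (named after its values were seen). The whole list summed to 338 FPKM in wt/fl against 282 in fl/fl. Igj, the joining chain of secreted antibodies, was at 5.40 and 0.617 FPKM, and Mzb1, a cochaperone that binds GRP94 and is also expressed in B cells, was at 189 and 140.4 FPKM. Prdm1, the defining transcription factor, was at 1.07 and 0.899 FPKM, under the minimum on average, and Tnfrsf17 was listed at 0 in both genotypes. Irf4 was at 60.8 and 58.9 FPKM. Xbp1, Fkbp11 and Derl3 are on this list and on the lists of the response as well. The part of plasma cell RNA in the ER values was not tested.

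Neutrophil markers were lower in fl/fl. Of 12 listed, 8 were kept and 7 of these were lower past the fold, against 5.48% of all genes. The median log2 ratio was −2.38, and the whole list summed to 385 FPKM in wt/fl against 71.8 in fl/fl. S100a9 was at 175 and 34.5 FPKM, S100a8 at 145 and 25.8 FPKM and Camp at 15.3 and 1.70 FPKM, while Elane and Mpo, the granule genes of neutrophil precursors, were at 0.119 FPKM or less in both. All macrophage and monocyte markers summed to 13.3 and 13.6 FPKM. Past the fold, 1 was lower and 2 were higher, against 5.48% and 4.6% of all genes. Of 12 listed, 6 were kept, with a median of 0.10. The highest of them were Hmox1 at 1.51 and 2.98 FPKM, C1qb at 1.61 and 2.39 FPKM and Vcam1 at 2.09 and 1.78 FPKM. All T cell markers summed to 24.3 and 22.6 FPKM. Past the fold, 1 was lower and 0 were higher, against the same shares of all genes. Of 8 listed, 5 were kept, with a median of −0.23. The highest of them were Lck at 14.5 FPKM in both, Cd3d at 3.02 and 2.31 FPKM and Cd3e at 1.83 and 1.96 FPKM. The part of these cells in the ER values was not tested. In RNA from a whole sorted population, fewer cells of a type and less RNA per cell cannot be told apart.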

How the data were processed

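RNA of sorted follicular B cells (3 samples per genotype) was extracted with TRIzol, amplified with the Ovation kit and made into TruSeq Nano libraries. Per the labels, the authors used Bowtie, TopHat and Cufflinks with mm10/GRCm38; versions are not given in the sources used here. The deposited table, in the Cuffdiff layout, holds 1 FPKM per genotype and entry, pooled by the authors over 3 samples. Depth per sample is unknown. The authors' fold changes, test statistics, p-values and q-values were not used. Table positions did not match GRCm38 (2 of 35 genes started within 100 bases of the RefSeq start) and were not used.

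FPKM was summed per symbol (25017 entries, 20458 symbols, with 44 date-like entries left out) and compared as log2((fl/fl + 1)/(wt/fl + 1)) for genes whose mean reached 1 FPKM, using Python 3.11.15 and pandas 2.3.3. The calculation was tested on simulated data without noise, which checks the arithmetic only. No design across samples could be fitted. The genes, the role groups, the 4 pathway, 2 comparison and 5 marker lists and the rules were chosen with earlier results of these data known. Named were all 35 genes, Myh9, set genes of the response, the 3 largest log2 ratios per pathway list at 5 FPKM or more, the 3 most abundant genes per other list with Igj and Prdm1, HSP family relatives, and entries that differ from their sum. Promoters were matched by symbol. Alternatives were pseudocounts of 0.1 and 0.5, minimums of 5 FPKM and none, folds of 1.5 and 2, the highest entry per gene, and upper quartile and median scaling. March6, Fam8a1 and Adgre1 were not matched by symbol. Another gene that the naming rule selects is not reported here.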

Additional observations from a re-analysis of the deposited data

How the results depend on the processing

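The count of ER genes higher in fl/fl, 1 (Ern1), was 0 at a fold of 1.5, at a fold of 2, at a mean of at least 5 FPKM (which leaves Ern1 out) and with upper quartile scaling. The count of lower genes, 0, was 1 with the highest entry per gene, where Sel1l had a log2 ratio of −0.40. The median of the ER genes and the log2 ratio of Myh9 stayed within 0.1 of their values under each alternative. A change of minimum leaves the ratio of each single gene as it is, and the highest entry alters only genes with more than 1 entry. The scalings multiplied fl/fl by only 0.996 and 0.998. Many values were thus bound to stay, and their count is no measure of how firm the ratios are. Of 272 values of role groups and single genes under the alternatives, 269 stayed within 0.1. The 3 others were Ern1 (0.51 with a pseudocount of 0.1), Sel1l as above, and the median of the sensors. That median changed sign, from 0.11 to −0.05 at 5 FPKM, where Ern1 is left out. No paired analysis was possible because the table holds 1 pooled value per genotype, and for the same reason no replicate could be left out. Without counts or separate samples, neither sampling error nor the spread between mice is known, so a difference of the size seen in Sec61b or Pdia6 cannot be set against either.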
